A study of Mus musculus with 2 samples.

Results

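MHC class II-high tumour cells are tumour cells of a mouse brain tumour with mutant IDH1 (mIDH1) that carried the most RNA of the class II antigen-presentation genes. They were 150 of the 4970 barcodes of the series and 150 of the 1886 cells that passed the gate for tumour cells. A cell passed the gate with at least 200 genes, at most 15 percent mitochondrial UMIs (unique molecular identifiers, counts of captured RNA molecules), at least 10000 UMIs, Nras at 1000 CPM or more (the gene's UMIs over the UMI total, times 1000000), and at most 1 UMI of the myeloid adaptor genes Tyrobp and Fcer1g together. Within each library the cells were ranked by the summed CPM of Cd74, H2-Aa, H2-Ab1, H2-Eb1 and Ciita, and the highest 75 were taken. The measured levels of those 5 genes therefore chose the cells, and they are described without a test.

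Droplet RNA counts were available for 2 libraries, replicates 1 and 2, from brain tumours of C57BL/6 mice at the symptomatic stage, and both belong to 1 group. The labels name mutant IDH1 and no other allele, promoter or agent, and they do not say that the libraries come from separate animals. The p-values therefore cover only the spread between these libraries, which may be technical and was largely pooled over genes. No other genotype or treatment was compared. Replicate 1 gave 1032 cells in the gate (75 members and 957 other tumour cells) and replicate 2 gave 854 (75 and 779). The members' counts summed to 4309301 and 4479856 UMIs, and those of the other tumour cells to 47552642 and 44256769.

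MHC class II molecules present peptides taken up from outside a cell to CD4+ T cells, and they are best known from dendritic cells, B cells and macrophages. Other cells, glioma cells among them, can make them under interferon-gamma, which acts through JAK kinases to induce Ciita, the coactivator that switches on the class II genes. The invariant chain Cd74 blocks the groove of a new class II molecule, and the H2-DM dimer later helps to exchange its last fragment for a peptide.

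Ciita does not bind DNA by itself but is held at class II promoters by proteins bound to an X box and a Y box. Windows of 150 bases from the RefSeq promoters (GRCm38.p6) of 2 ranking genes and of H2-DMb1 are shown because they hold the motifs marked. Capitals mark an X-box-like core, CTNGNAAC, and the Y box ATTGG downstream of it, each read 5′ to 3′ on the gene's strand. The letters of the X-box-like core were chosen after these promoters had been read.
H2-Aa, chr17:34287794-34287943, minus strand: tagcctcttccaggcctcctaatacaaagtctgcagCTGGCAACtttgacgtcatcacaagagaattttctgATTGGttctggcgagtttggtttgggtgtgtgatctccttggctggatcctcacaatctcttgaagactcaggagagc
H2-Eb1, chr17:34305747-34305896, plus strand: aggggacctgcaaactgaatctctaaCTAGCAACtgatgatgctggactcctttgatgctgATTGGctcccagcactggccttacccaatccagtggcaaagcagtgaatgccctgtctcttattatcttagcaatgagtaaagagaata
H2-DMb1, chr17:34153071-34153220, plus strand: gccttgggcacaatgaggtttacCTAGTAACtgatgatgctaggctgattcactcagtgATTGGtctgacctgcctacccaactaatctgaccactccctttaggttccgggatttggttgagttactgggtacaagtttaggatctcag
The gap between the motifs was 28, 27 and 28 bases in these promoters. Of 32851 RefSeq promoters, 47 (0.143%) held this pair on the gene's strand with a gap of 10 to 35 bases. Over both strands, CTNGNAAC alone was found in 13.2% and ATTGG alone in 37.4% of the promoters. The promoters shown were picked because they hold the pair. No promoter of the ranking genes Cd74, H2-Ab1 and Ciita was available for the search. H2-Ob held the pair too, with a gap of 25 bases, though it had 0 UMIs in the members of both libraries. H2-DMa (both listed promoters), H2-DMb2 and H2-Oa did not hold it in this window. These matches describe the letters only.

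The promoters of Gbp2, an interferon-induced guanylate-binding protein, and Irf1, a transcription factor induced by interferon-gamma, are shown because both genes come up in the results and these promoters hold a motif searched. Capitals mark an interferon-stimulated response element core (GAAA, any 2 bases, GAAA), which lies on the opposite strand in Gbp2 and so reads TTTC, 2 bases, TTTC, and a gamma-activated site core, TTCNNNGAA, in Irf1.
Gbp2, chr3:142620543-142620692, plus strand: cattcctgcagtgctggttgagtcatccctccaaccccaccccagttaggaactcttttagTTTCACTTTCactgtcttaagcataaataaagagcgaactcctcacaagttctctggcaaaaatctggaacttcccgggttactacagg
Irf1, chr11:53769894-53770043, plus strand: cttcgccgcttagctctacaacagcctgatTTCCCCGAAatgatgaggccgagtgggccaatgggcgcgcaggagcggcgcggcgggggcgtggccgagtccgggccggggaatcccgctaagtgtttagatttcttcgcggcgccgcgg
Over both strands, the first core was found in 3.44% and the second in 8.30% of all promoters. Cxcl10 held the first core and 1 of the 2 listed promoters of Gbp3 held it, while the promoters of Psmb9 and Cxcl9 and a second promoter of Irf1 held neither in this window.

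The class II signal was spread unevenly over the members. In replicate 1 the summed level of the ranking genes ran from 2633 CPM in the first cell to 36.6 in the last, with a median of 121, and the first cell left out stood at 35.98. In replicate 2 it ran from 2810 to 28.2, with a median of 76.1 and 28.0 in the first cell left out. The 25 highest cells held 82.2% and 83.8% of the members' ranking UMIs. At the low end a member rested on few molecules: 7 members of replicate 1 and 19 of replicate 2 had a single ranking UMI, while 46 and 39 had 5 or more. All 5 genes were found in 10 and 4 members. Members and other tumour cells had median depths of 52381 and 41931 UMIs in replicate 1 and of 45595 and 48146 in replicate 2.

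**Figure D1:**
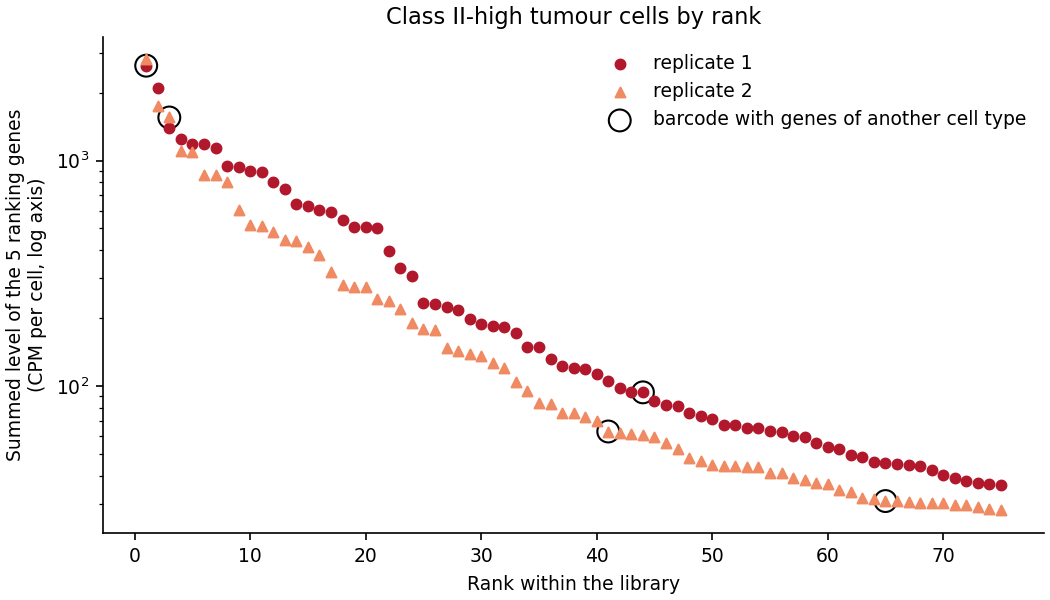
Each point is 1 member cell, by its rank within the library (horizontal axis) and its summed CPM of the 5 ranking genes (vertical log axis); circles and triangles are replicates 1 and 2, and open rings mark the 5 barcodes that also held genes of another cell type. The level falls from 2633 and 2810 CPM at the first rank to 36.6 and 28.2 at the last.

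Cd74 was at 224 and 177 CPM in the members of replicates 1 and 2 and at 1.43 and 1.22 in the other tumour cells. A Cd74 UMI was found in 71 and 61 of 75 members and in 6.17% and 6.29% of the other tumour cells, where no cell held more than 4. H2-Aa, the alpha chain of the I-A class II molecule, was at 33.0 and 23.2 CPM in the members. H2-Ab1, its beta chain, was at 56.2 and 33.7 CPM. H2-Eb1, the beta chain of the I-E molecule, was at 40.6 and 23.9 CPM. H2-Aa was found together with H2-Ab1, H2-Eb1 or both in 29 and 16 members, so a cell counted here need not have held both chains of I-A. Ciita was at 8.59 and 6.70 CPM in the members, from 37 and 30 UMIs in 22 and 16 cells, and at 0.251 ± 0.028 (SD over 2 libraries) in the other tumour cells. These levels follow from the ranking.

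The same genes were far higher in the myeloid barcodes of the same libraries, defined by at least 10 UMIs of Tyrobp and Fcer1g and under 500 CPM of Nras (422 and 358 barcodes). Cd74 reached 5472 and 5037 CPM there and Ciita 33 ± 3.1 (SD over 2 libraries). C1qa, a complement gene of macrophages and microglia, was at 1.86 and 1.79 CPM in the members, 1.60 and 1.79 in the other tumour cells, and 9810 and 10286 in the myeloid barcodes. The lysozyme gene Lyz2 was at 1.86 and 1.12, 0.925 and 1.06, and 5515 and 5258 CPM in the same order. Members and other tumour cells differed by less than 1 CPM in the level of both genes. The gate admitted at most 1 UMI of Tyrobp and Fcer1g, and the part of free RNA in the class II levels was not tested.

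Of the tumour markers, Nras was used by the gate, so its level is no check of the label. The other 4, Sox2, Nes, Tnc and Cdkn2a, summed to 763.0 and 752 CPM in the members, 542 and 535 in the other tumour cells, and 12.1 and 17.8 in the myeloid barcodes. The 10 macrophage and microglia markers summed to 11.4 and 10.3 CPM in the members, with Trem2 at 0 in both libraries, against 14.2 and 13.4 in the other tumour cells and 33430 and 34698 in the myeloid barcodes. The 6 pan-immune markers summed to 16.5 and 2.68 CPM, against 3.79 and 2.67 in the other tumour cells and 5502 and 5644 in the myeloid barcodes. Without the 5 member barcodes described in the next paragraph, the members' sums were 1.66 and 2.14. Of 8 T and NK cell markers, 7 were at 0 in both libraries, Cd3e among them. Of 10 dendritic cell markers, 5 were at 0 in both, and Fscn1 made up most of the summed 128 and 132 CPM, beside 106 and 108 in the other tumour cells. Endothelial markers summed to 12.3 and 19.4 CPM, with 4 of 6 at 0 in both libraries. The 6 mural and fibroblast markers, Pdgfrb first among them, summed to 19.7 and 42.2 CPM, beside 18.7 and 18.1 in the other tumour cells. Basophil markers and neutrophil and monocyte markers summed to at most 6.96 CPM in the members. B cell markers summed to 804 and 0.89 CPM and erythroid genes to 1686 and 172; without the 5 barcodes described next these sums were 0.95 and 0.95, and 14.0 and 12.6.

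Of the members, 5 were set apart because they held genes of other cells. The first cell of replicate 1 carried 3639 immunoglobulin UMIs, 64 pan-immune UMIs and 27 UMIs of Xist, and the cell at rank 44 carried 7193 haemoglobin UMIs. In replicate 2 the cell at rank 3 carried 650 haemoglobin UMIs and 8 of Xist, that at rank 41 carried 8 of Xist beside genes that are not reported here, and that at rank 65 carried 68 haemoglobin UMIs. No Xist UMI was found in the other 147 members. The doublet caller scrublet marked none of the members. Counts of calls and some levels are given with and without such barcodes, of which the other tumour cells held 8 and 9. Most single levels and all levels by rank include them. The libraries shared 10 barcode sequences, none of them in the gate.

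The comparison with the other tumour cells of the same gate asked what else differed in class II-high cells. It left out the ranking and gate genes and was tested on counts summed per library and class (edgeR quasi-likelihood, library as a block, Benjamini-Hochberg adjustment over all genes). Of 12434 genes tested, 712 (5.73%) passed an adjusted p of 0.05. In the members 439 of them (3.53%) were higher and 273 (2.20%) lower, and 711 of the 712 had the same sign in both libraries. The calls were made on these same libraries, so the shared sign is largely given by the test. Without the barcodes that held genes of other cells, 692 (5.6%) were higher and 489 (3.95%) lower, 9.55% of 12367 tested. With ranks 26 to 75 alone as members, 263 (2.15%) were higher and 144 (1.18%) lower, 3.33% of 12239. Each fit estimated its own dispersions, so a larger count is not stronger evidence. Sums over 75 cells can be carried by a few cells, and the share of the UMIs in the highest member was computed for each gene named by rule. With every cell thinned to 10000 UMIs, 34 of the 73 such genes that were called passed again with the same sign, and 5 of the 73 gave no value.

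The peptide-loading chaperone of class II was higher along with the ranking genes. H2-DMb1, its beta chain, was at 39.5 and 23.9 CPM in the members of replicates 1 and 2 and at 0.904 and 0.723 in the other tumour cells (log2 fold change 5.21 ± 0.22 SE, adjusted p = 2.38e-07). H2-DMa, its alpha chain, was at 23.9 and 11.4 CPM against 1.51 and 1.45 (3.47 ± 0.29, adjusted p = 3.97e-05). The members lay above the other cells in both libraries for both genes. At the full depth of each cell a UMI of H2-DMb1 was found in 54.7% and 36% of members and in 3.45% and 3.21% of the other cells. With every cell thinned to 10000 UMIs these shares were 21.3% and 10.7% against 0.940% and 0.390%.

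Other steps of class II presentation moved little or the other way. Ctsl, a lysosomal protease that trims the invariant chain in some cells, was lower, at 1057 and 1020 CPM against 1531 and 1481 (-0.59 ± 0.07, adjusted p = 6.10e-04). Ctss, the protease that does so in professional presenting cells, was at 3.02 and 1.79 CPM against 1.43 and 1.60 and did not pass. None of the 7 proteins of the class II promoter complex that were tested passed (Rfx5, Rfxap, Rfxank, Creb1, Nfya, Nfyb and Nfyc). Rfx5, the factor that contacts the X box, was at 6.03 and 5.80 CPM against 3.76 and 3.80 (0.60 ± 0.26, adjusted p = 0.231). Of 8 co-stimulatory genes only 2 had counts enough for the test and neither passed; Cd40, a receptor for T cell help, was at 1.62 and 1.56 CPM against 1.18 and 1.42.

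Components of the interferon-gamma receptor and the JAK-STAT pathway came next. Of the 16 tested, 5 were higher and none lower, and the median of the list was 0.30 on the log2 scale beside -0.001 over all genes. Irf1, a transcription factor that acts on Ciita, was at 210 and 171 CPM against 76.8 and 71.7 (1.31 ± 0.09, adjusted p = 8.25e-06). Socs1, the feedback inhibitor of JAK signalling, was at 91.9 and 84.4 CPM against 23.9 and 24.7 (1.81 ± 0.10, adjusted p = 1.83e-06). Stat2 was higher by 0.77 ± 0.11 and Irf2 by 0.40 ± 0.10, at an adjusted p of 2.53e-03 and 0.0461. The call of Irf2 was lost with DESeq2 and with ranks 26 to 75. The receptor chains and kinases did not pass. Ifngr1 was at 39.5 and 47.8 CPM against 39.0 and 39.1, Ifngr2 at 41.8 and 45.3 against 33.2 and 34.8, Jak1 at 39.2 and 50.9 against 44.1 and 44.2, and Jak2 at 9.75 and 14.5 against 9.30 and 10.3. Among the other members of the list, Socs3, Stat3, Irf8, Irf9, Ifnar1, Ifnar2 and Ptpn2 had log2 fold changes from -0.16 to 0.35 and an adjusted p of 0.0620 or more.

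Interferon-induced GTPases, which attack vacuoles of intracellular microbes, were higher almost throughout. Of 17 tested, 16 were higher and none lower, with a list median of 1.71 on the log2 scale. Gbp4 was at 144 and 120 CPM against 17.0 and 15.03 (2.99 ± 0.10, adjusted p = 3.16e-08). Gbp2 was at 405 and 307 CPM against 75.1 and 84.3 (2.10 ± 0.12, adjusted p = 2.29e-06). Igtp was at 197 and 181 CPM against 45.9 and 47.0 (1.97 ± 0.09, adjusted p = 3.23e-07). In each case both member sums lay above both sums of the other cells. The rarer Gbp5, Gbp8 and Gbp10 were called higher too, Gbp10 from 7 and 10 UMIs in the members and at 0.084 and 0.023 CPM in the other cells. Gbp8 and Gbp10 reached the low-count filter only through the members, so both had to differ, and without them the count was 14 of 15. The count was 16 without the barcodes of mixed content, 14 with DESeq2 and 13 of 16 with ranks 26 to 75, where Gbp8 no longer passed, and 10 of 15 with thinned cells. Close copies such as Tgtp1 and Tgtp2 can share reads, so their single levels are uncertain.

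Class I presentation, which shows peptides from inside the cell to CD8+ T cells, was higher in 16 of 22 genes and lower in none (median 0.72). The immunoproteasome subunits led: Psmb9 was at 189 and 142 CPM against 49.6 and 48.9 (1.68 ± 0.11, adjusted p = 4.28e-06). Psmb8 was higher by 1.34 ± 0.10 and Psmb10 by 1.33 ± 0.10. H2-T23, which encodes the non-classical class I molecule Qa-1, was at 205 and 199 CPM against 78.0 and 83.7 (1.27 ± 0.08, adjusted p = 7.86e-06). Tap1, a subunit of the peptide transporter, was at 146 and 120 CPM against 59.6 and 59.1 (1.11 ± 0.10, adjusted p = 5.82e-05). The heavy chain H2-K1, abundant in both classes, was higher by 0.47 ± 0.07 at 1668 and 1608 CPM against 1136 and 1149. B2m, the shared light chain, was at 1529 and 1499 CPM against 1228 and 1258 and did not pass (0.23 ± 0.07, adjusted p = 0.0846). Class I heavy chains resemble each other, so reads may be split between them.

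**Figure D2:**
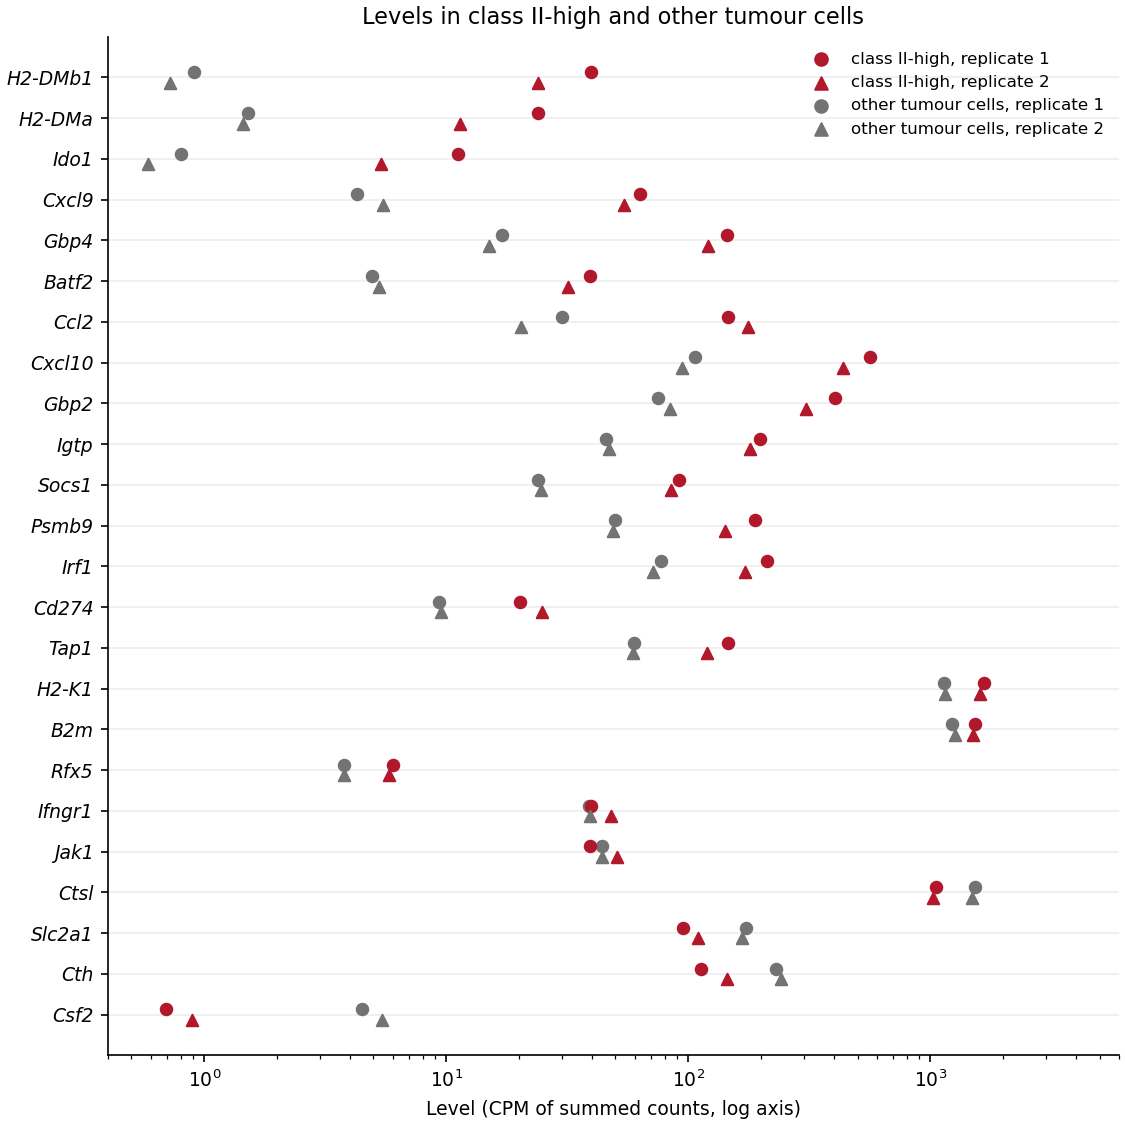
Level of 24 genes (CPM of the summed counts, log axis) in class II-high tumour cells (red) and other tumour cells (grey), 1 point per library (circles, replicate 1; triangles, replicate 2). Red points lie right of grey ones from H2-DMb1 down to Rfx5, though B2m and Rfx5 did not pass, those of Ifngr1 and Jak1 overlap or change order between libraries, and those of Ctsl, Slc2a1, Cth and Csf2 lie to the left.

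Genes best known as targets of type I interferon were higher as well. Of 29 tested, 23 were higher and none lower (median 0.64). Ifit2, Ifit3b, Cmpk2 and Mx1 had the largest changes by log2 fold among the called genes of this list. In Ifit2, 1 member held 30.9% and 39.1% of the UMIs of replicates 1 and 2, and in Mx1 28.0% and 34.3%. Mx1, an antiviral GTPase, was at 5.80 and 23.4 CPM against 4.06 and 5.04, so the members of replicate 1 were little above the other cells and those of replicate 2 were well above (1.52 ± 0.32, adjusted p = 0.0189). Cmpk2, a nucleotide kinase, was at 20.4 and 46.2 CPM against 10.4 and 14.6, with 52.7% of the UMIs in replicate 2 from 1 member. The number of higher genes was 25 without the mixed barcodes, 15 with DESeq2, 16 without the library block, 10 with thinned cells and 11 with ranks 26 to 75, where Ifit2 and Mx1 no longer passed. Mx1 and Ifit3b lost their call without the block, and Ifit3b with DESeq2.

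Chemokines that draw T cells and monocytes were higher in 6 of 8 genes tested (Cxcl9, Cxcl10, Ccl2, Ccl7, Cx3cl1 and Ccl5) and lower in none. Cxcl9, a ligand of the T cell receptor CXCR3 that interferon-gamma induces, was at 63.1 and 54.2 CPM against 4.29 and 5.49 (3.54 ± 0.15, adjusted p = 2.73e-07). In replicate 2 the cell at rank 3 with haemoglobin RNA held 60.9% of the members' Cxcl9 UMIs. Without the mixed barcodes Cxcl9 was at 64.5 and 21.9 CPM against 4.35 and 4.36 (3.16 ± 0.23, adjusted p = 3.52e-10). This edgeR p-value is smaller than with all members although the change is smaller and its SE larger. Each fit estimated its own dispersions, so these p-values cannot be ranked as evidence. Cxcl10, another CXCR3 ligand, was at 562 and 435 CPM against 107 and 93.7 (2.25 ± 0.08, adjusted p = 6.71e-08). It was found in 58.7% and 41.3% of members and in 23.9% and 23.7% of the other cells, and at 10000 UMIs per cell in 45.3% and 30.7% against 12.4% and 12.6%. Ccl2, which attracts monocytes, was at 146 and 176 CPM against 29.97 and 20.4 (2.65 ± 0.16), with 29.0% and 37.1% of its UMIs in the highest member of each library. Ccl7 came from 4 and 34 UMIs and its call was lost with DESeq2, without the block and with ranks 26 to 75.

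Among ligands and enzymes that restrain T cells, 4 of 12 were higher and none lower. Ido1, which degrades tryptophan, was at 11.1 and 5.36 CPM against 0.799 and 0.587 (3.47 ± 0.37, adjusted p = 2.89e-04), with 27.1% and 33.3% of its UMIs in 1 member of each library. Cd274, which encodes PD-L1, was at 20.2 and 24.8 CPM against 9.34 and 9.49 (1.20 ± 0.15, adjusted p = 1.01e-03). Lgals9, a galectin that binds inhibitory receptors, was at 28.5 and 32.6 CPM against 12.9 and 12.5 (1.21 ± 0.13), and did not pass with ranks 26 to 75. Cd47, the signal that holds off phagocytes, was higher by 0.51 ± 0.08.

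Of 14 cell death genes, 8 were higher and none lower. Casp1, the inflammasome protease, was at 7.66 and 6.03 CPM against 0.757 and 1.51 (2.59 ± 0.40, adjusted p = 3.23e-03). Gsdmd, the pore protein it cleaves, was at 18.6 and 25.7 CPM against 9.38 and 9.20 (1.19 ± 0.17). Tnfsf10, which encodes TRAIL, was at 3.48 and 5.58 CPM against 0.988 and 1.11 (2.04 ± 0.38, adjusted p = 0.0103) and did not pass with ranks 26 to 75. Of 5 complement genes tested, C4b and Cd55 passed, from 6 and 35 and from 11 and 4 UMIs. Both reached the low-count filter only through the members, and neither passed without the mixed barcodes. In C4b, 1 member of replicate 2 held 85.7% of the UMIs, and in Cd55, 1 member of replicate 1 held 81.8%.

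Of 13 genes of the ATF4 response to amino-acid shortage, 7 were lower and none higher (median -0.43). Cth, an enzyme of cysteine synthesis, was at 113 and 144 CPM against 231 and 241 (-0.94 ± 0.09, adjusted p = 1.45e-04). Sesn2, an inhibitor of growth signalling under amino-acid lack, was at 14.9 and 13.8 CPM against 22.7 and 22.9 (-0.72 ± 0.14), and its call was lost with DESeq2 and with ranks 26 to 75. Atf4 itself was at 264 and 319 CPM against 376 and 392 (-0.45 ± 0.08). Of 14 hypoxia and glycolysis genes, 7 were lower and none higher (median -0.43). Slc2a1, a glucose transporter, was at 95.1 and 110 CPM against 173 and 166 (-0.78 ± 0.09, adjusted p = 5.98e-04). Ndrg1, which hypoxia induces, was at 19.3 and 29.7 CPM against 45.1 and 38.4 (-0.82 ± 0.17). With ranks 26 to 75 only 1 of the ATF4 genes and 3 of the hypoxia genes passed, with thinned cells 1 and 3 were lower, and without the mixed barcodes 10 and 8 did. None of the 18 oxidative phosphorylation genes passed (median 0.08), and none of the 20 cell cycle genes (median 0.22) or of the 15 DNA and histone methylation genes did. Without the mixed barcodes 3, 4 and 0 of these were higher, and 2 methylation genes were lower.

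Of 16 mesenchymal-like state genes, 6 were higher (Tnc, Sparc, Vim, Anxa1, S100a6 and S100a10) and Spp1 was lower, and none of them passed with thinned cells. Tnc, a matrix glycoprotein, was at 76.1 and 64.1 CPM against 42.2 and 45.2 (0.63 ± 0.11). The call of Spp1 (-0.30 ± 0.08) was lost with DESeq2, without the block and with ranks 26 to 75. Among progenitor genes Sox2, a stem cell factor, was higher by 0.49 ± 0.13 and the tubulin regulator Stmn1 by 0.38 ± 0.08. Sox2 lost its call with DESeq2, without the block and with ranks 26 to 75, and Stmn1 without the block. Of 9 astrocyte-like genes, Clu, a secreted chaperone, was lower at 159 and 171 CPM against 252 and 263 (-0.69 ± 0.08), and Mt3 and Hopx, each below 10 CPM, were higher but lost their calls with DESeq2. Of 14 MAPK output genes, the growth factor Areg and the feedback inhibitor Spry4 were lower (-0.56 ± 0.08 and -0.54 ± 0.10). Cdkn2a, the tumour suppressor locus and a tumour marker here, was higher at 541 and 552 CPM against 373 and 362 (0.52 ± 0.07), and Gadd45a, a p53 target, was lower (-0.58 ± 0.13).

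Among colony-stimulating and myeloid growth factors, Csf2 (GM-CSF) was lower at 0.696 and 0.893 CPM, from 3 and 4 UMIs, against 4.48 and 5.40 in the other cells (-2.68 ± 0.41, adjusted p = 3.01e-03). Tgfb1 was lower and Lif higher by 0.59 ± 0.15, and both lost their calls with DESeq2 and with ranks 26 to 75. Of 13 collagen and matrix genes, Col3a1, the chain of fibrillar type III collagen, was at 21.1 and 23.2 CPM against 4.21 and 3.93 (2.39 ± 0.18, adjusted p = 1.84e-05). Timp3, a protease inhibitor, was higher by 0.91 ± 0.16 and stood at -0.007 with thinned cells. Of 16 heat shock and dissociation stress genes, Jun and Zfp36 were higher and Hspa1a, an inducible chaperone, lower. Hspa1a came from 31 and 39 UMIs, of which 1 member held 58.1% and 46.2%, and 1 member of replicate 2 held 37.6% of the Zfp36 UMIs. Of 12 targets of NF-kappaB only Tnfaip2 passed, and it was lower. Zfp36, Hspa1a and Tnfaip2 each lost their call with DESeq2, without the block and with ranks 26 to 75. The only tested gene of the oligodendrocyte progenitor-like list did not pass.

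**Figure D3:**
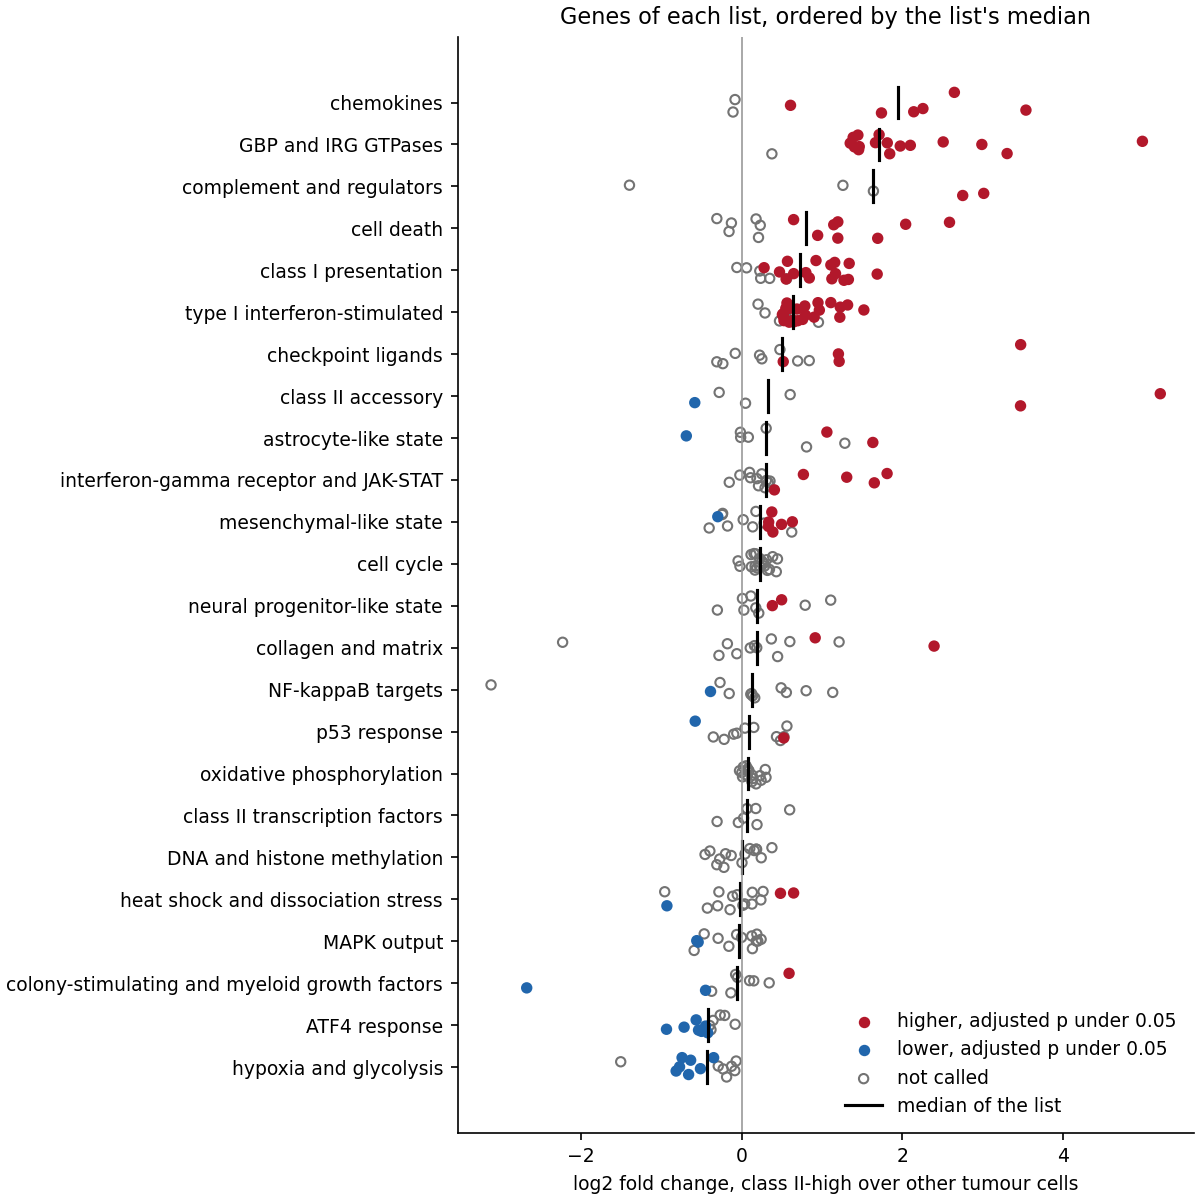
Each point is 1 gene of a list, at its log2 fold change between class II-high and other tumour cells (horizontal axis); red and blue points passed an adjusted p of 0.05, open points did not, and bars mark list medians. Lists with fewer than 5 tested genes are left out. Chemokines and GBP and IRG GTPases lie to the right, at medians of 1.94 and 1.71, and the ATF4 response and hypoxia and glycolysis to the left, at -0.43 each.

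Outside the lists, the 8 higher genes picked by size included Batf2, a transcription factor induced by interferon-gamma, at 39.2 and 31.7 CPM against 4.92 and 5.27 (2.74 ± 0.16), with 27.2% of its UMIs in replicate 1 from 1 member. Il18bp, a decoy for interleukin-18, was at 28.8 and 26.1 CPM against 6.46 and 6.71 (2.01 ± 0.15). Ly6a, which encodes the surface protein Sca-1, was at 1248 and 946 CPM against 340 and 334 (1.64 ± 0.09), and its relative Ly6c1 was higher by 2.35 ± 0.14. Fst, which binds activin, was at 74.7 and 64.1 CPM against 6.20 and 8.45 (3.20 ± 0.15, adjusted p = 6.64e-07). A single member of replicate 2 held 40.1% of its UMIs there, and without that cell Fst was at 40.7 CPM. Crabp1, which binds retinoic acid, was at 115 and 79.5 CPM against 26.5 and 21.1 (1.97 ± 0.10), with 26.01% and 19.7% of its UMIs in the highest member. The organic anion transporter Slco3a1 and the secreted protein Olfml3 completed this set (2.17 ± 0.21 and 1.77 ± 0.14). The 8 lower genes were Phlda2, Fbln2, Jag1, Hmox1, Slc9a2, Qrfp, Atg9b and Grem1. Phlda2, an imprinted growth gene, was at 29.7 and 39.5 CPM against 94.6 and 87.9 (-1.45 ± 0.13, adjusted p = 5.82e-05). Fbln2, a matrix protein, was at 21.1 and 17.6 CPM against 41.8 and 44.6 (-1.21 ± 0.13). Jag1, a Notch ligand, was at 35.3 and 56.9 CPM against 84.8 and 86.6 (-0.96 ± 0.14). Hmox1, which degrades haem, was at 38.5 and 33.7 CPM against 64.0 and 67.6 (-0.92 ± 0.11), with 30.7% of its UMIs in replicate 1 from 1 member. Grem1 (-0.86 ± 0.17) lost its call with DESeq2 and without the block.

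Haemoglobin genes stood among the strongest calls and rested on single barcodes. Hbb-bs was at 1073 and 116 CPM in the members against 92.9 and 8.50, and 1 member held 99.1% of its UMIs in replicate 1 and 1 held 82.2% in replicate 2. Without the mixed barcodes Hbb-bs was at 9.48 and 8.57 CPM against 8.11 and 8.47 and did not pass (adjusted p = 0.898). Of the 73 called genes named by rule, 5 had a single member with over 50 percent of the UMIs in a library, and 48 had no member with over 20 percent in either.

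Several levels followed the class II rank within the members. H2-DMb1 was at 83.8 and 49.0 CPM in ranks 1 to 25, 27.4 and 13.7 in ranks 26 to 50, 3.68 and 6.43 in ranks 51 to 75, and 0.492 and 0.354 in gate cells without a ranking UMI. Gbp2 was at 577 and 387, 366 and 327, 257 and 179, and 70.5 and 75.7 CPM in the same tiers. Cth ran the other way, from 65.7 and 95.4 CPM in the first tier to 157 and 195 in the last and 236 and 248 in cells without a ranking UMI. Fst did not follow the rank in this way: it was at 93.2 and 78.6 CPM in ranks 1 to 25, higher at 111 and 92.0 in ranks 26 to 50, and at 15.4 and 8.04 in ranks 51 to 75. C1qa, the macrophage gene, was between 0 and 3.87 CPM in every tier and showed no common order. Gate cells outside the members that held a ranking UMI were at 3.31 and 2.53 CPM of H2-DMb1. In replicate 1 this was close to ranks 51 to 75. The 25 cells from rank 76 on were at 6.29 and 3.64 CPM of H2-DMb1, in replicate 1 above ranks 51 to 75. All gate cells outside the members with a ranking UMI were at 102 and 127 CPM of Gbp2. They were at 59.8 and 69.5 of Psmb9 beside 47.8 and 44.8 in cells with none. The ranking used the class II genes of the same cells, so these orders are descriptions.

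**Figure D4:**
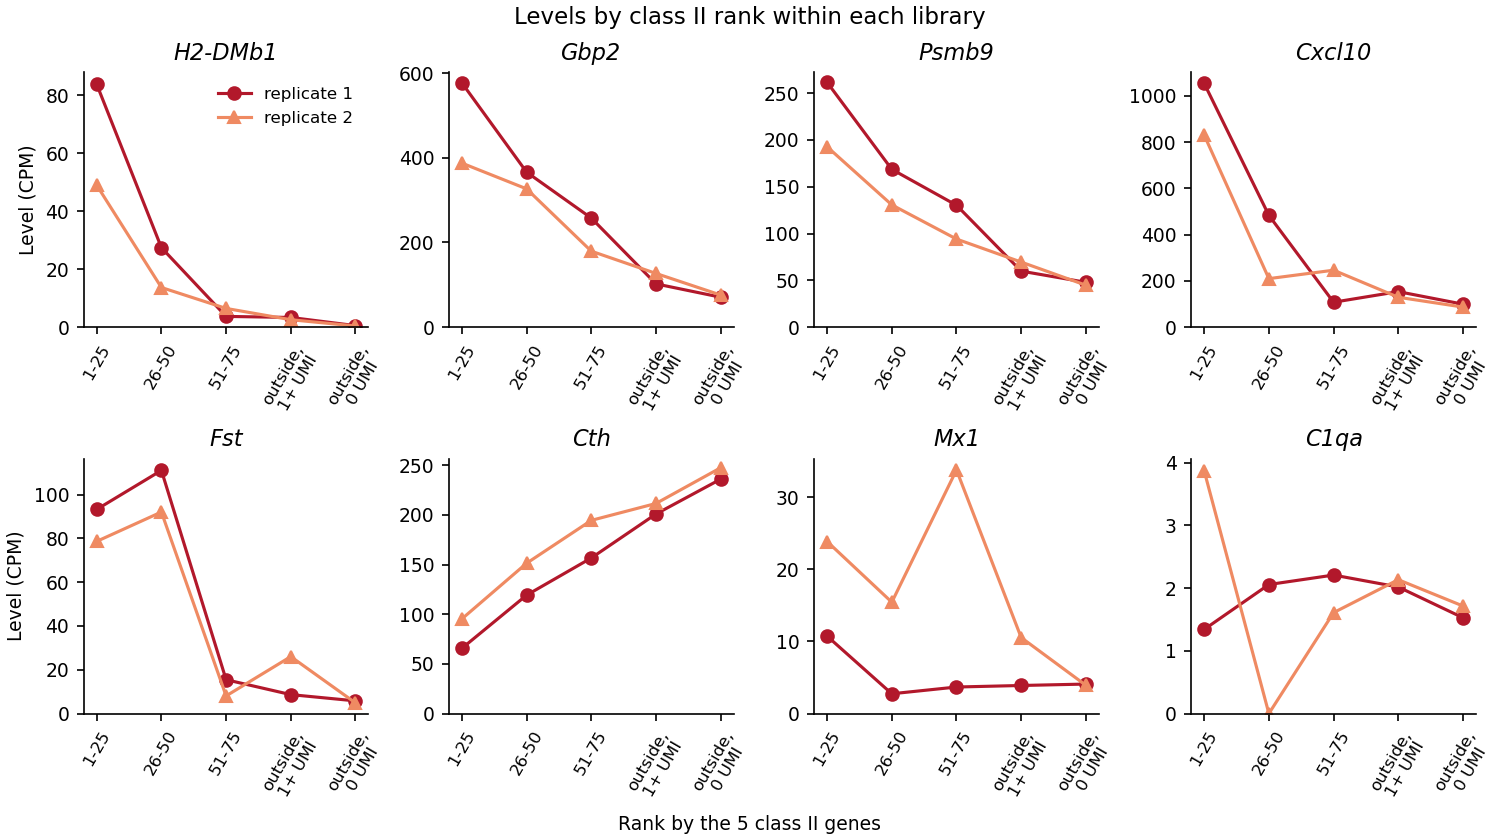
Level (CPM) of 8 genes in members of ranks 1 to 25, 26 to 50 and 51 to 75 and in gate cells outside the members with and without a ranking UMI, 1 line per library. H2-DMb1, Gbp2 and Psmb9 fall with rank and Cth rises in both libraries, Mx1 differs between libraries, and C1qa stays below 4 CPM.

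Class II-high cells were set beside tumour cells chosen for the strongest type I interferon signature and no ranking UMI, to see where the 2 classes differ. From each library 75 such cells with the highest summed CPM of Ifit1, Ifit3, Isg15, Rsad2, Mx1, Oasl2 and Usp18 were taken, and their counts summed to 3025775 and 3979956 UMIs. On that score the lowest interferon-high cell stood at 1534 and 1326 CPM. The members' medians were 383 and 317 CPM and their highest cells stood at 5806 and 9156. Of the members, 14 and 15 (18.7% and 20%) reached the lowest interferon-high cell, beside 8.78% and 11.4% of the other tumour cells, which include the interferon-high cells, so the classes overlap on this score. Of 10361 genes tested without the ranking genes of either class, 702 (6.78%) passed, 338 higher (3.26%) and 364 lower (3.51%) in class II-high cells. The fit estimated no variation in dispersion between genes, and its p-values are too small for 2 libraries. DESeq2 called 118 of these 702 genes, and its result is given for most of the genes named below.

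The interferon-high cells were chosen without a ranking UMI and the members for the highest class II level. Genes that go with class II were therefore favoured to be higher in the members, whichever test is used. H2-DMb1 was at 39.5 and 23.9 CPM in class II-high cells and 0.330 and 1.01 in interferon-high cells (5.30 ± 0.36), a call that DESeq2 shared (adjusted p = 2.29e-04). With 1 and 4 UMIs in the interferon-high cells, H2-DMb1 reached the low-count filter only through the members, so it had to differ. DESeq2 was run on the same filtered genes, so its call is no separate support. Gbp4 was at 144 and 120 CPM against 52.5 and 36.4 (1.52 ± 0.14), Gbp2 at 405 and 307 against 206 and 183 (0.80 ± 0.12), and Socs1 at 91.9 and 84.4 against 38.3 and 38.9 (1.12 ± 0.15), all 3 called by DESeq2 too. Of 15 GTPases tested 4 were higher (2 with DESeq2) and none lower, and of 22 class I genes 4 were higher (2 with DESeq2) and none lower. Psmb9 was at 189 and 142 CPM against 99.8 and 93.0 (0.70 ± 0.13; DESeq2 adjusted p = 0.0267). Cxcl9 was at 63.1 and 54.2 CPM against 0.991 and 17.6, a call that DESeq2 did not make and that was lost without the mixed barcodes (adjusted p = 0.0740 with edgeR). Fst and Crabp1 were higher in class II-high cells than in this class too (3.57 ± 0.22 and 3.16 ± 0.18), with a DESeq2 adjusted p of 0.0476 and 8.35e-03. In replicate 1 Fst and Cxcl9 had only 4 and 3 UMIs in the interferon-high cells.

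Of 22 type I interferon-stimulated genes tested, 20 were lower in class II-high cells and none higher (10 lower with DESeq2), as the choice of the interferon-high cells on related genes would give. Oasl1, Ifih1, Ifi207, Ifit2 and Dhx58 were the 5 lower genes picked by size. Ifih1, a sensor of double-stranded RNA, was at 19.5 and 27.0 CPM against 87.3 and 73.4 (-1.84 ± 0.16; DESeq2 adjusted p = 2.40e-07). DESeq2 called Oasl1, Ifi207 and Dhx58 too, but not Ifit2. Stat2, a component of the type I interferon transcription complex, was at 36.7 and 40.4 CPM against 68.1 and 70.4 (-0.91 ± 0.15; DESeq2 adjusted p = 0.0486). Among genes that restrain T cells, edgeR called Cd274 and Lgals9 lower in class II-high cells (-0.62 ± 0.18 and -0.64 ± 0.17). DESeq2 did not call Cd274, and its edgeR call was lost without the mixed barcodes (adjusted p = 0.0887). Cd47 did not pass (-0.34 ± 0.12). Ido1 went the other way (4.04 ± 0.60), from 1 and 2 UMIs in the interferon-high cells. Ido1 reached the low-count filter only through the members, so it had to differ, and DESeq2 gave it no adjusted p. Cxcl10 was lower in class II-high cells at 562 and 435 CPM against 1001 and 669 (-0.79 ± 0.11; DESeq2 adjusted p = 2.03e-07). Cth was lower here as well (-0.90 ± 0.12; DESeq2 adjusted p = 7.35e-05). Of 13 ATF4 response genes 10 were lower, but only 1 with DESeq2 and 5 without the mixed barcodes. The 8 of 20 cell cycle genes that were higher fell to 0 with DESeq2. The other genes picked by size, Hbb-bs, Hba-a1 and Hba-a2, were higher with the barcodes that held haemoglobin RNA, and without them Hbb-bs was at a log2 fold change of 0.04. With those barcodes DESeq2 called these haemoglobin genes too, so its call is no guard against sums carried by single barcodes.

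**Figure D5:**
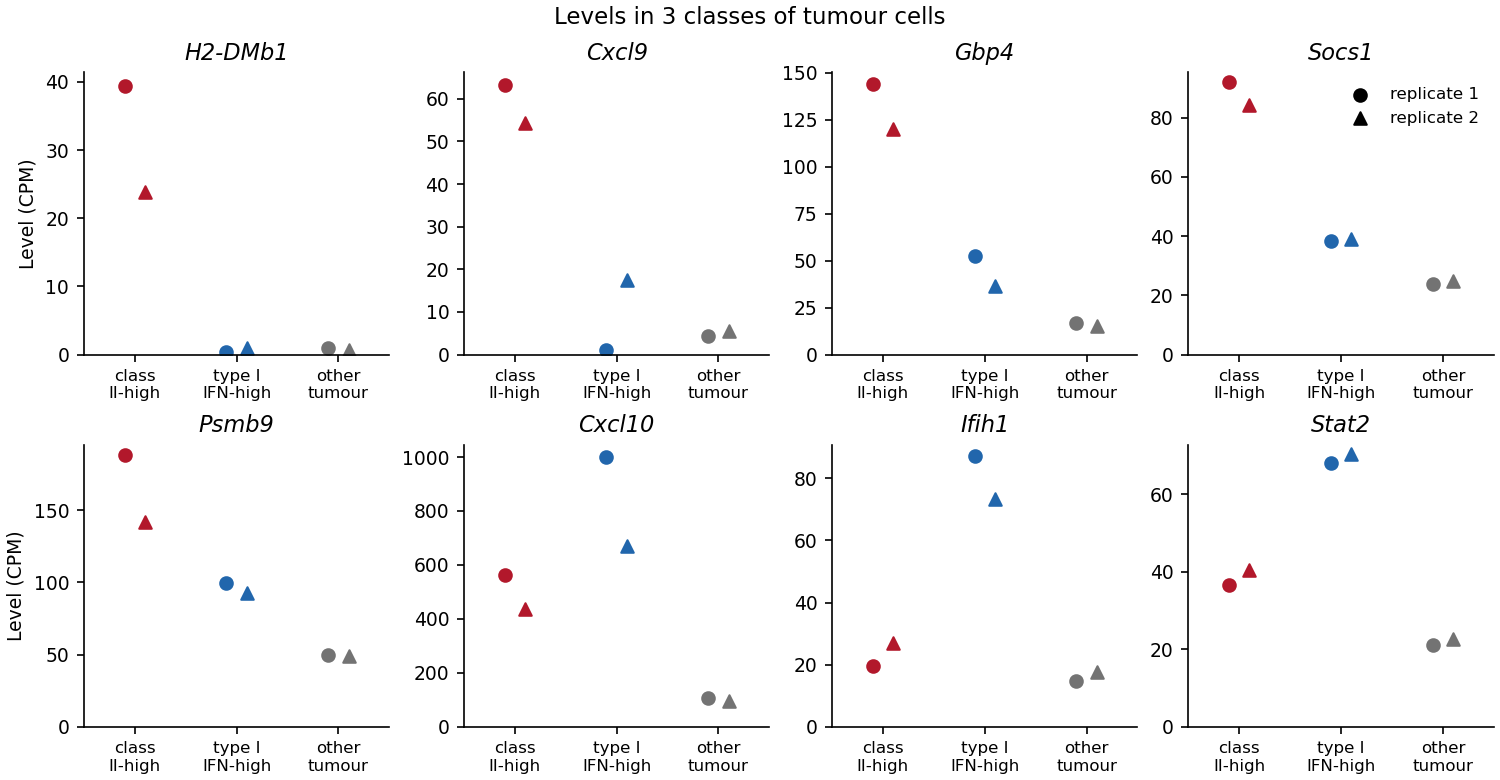
Level (CPM) of 8 genes in class II-high cells (red), type I interferon-high cells without class II UMIs (blue) and other tumour cells (grey), 1 point per library. H2-DMb1, Cxcl9, Gbp4 and Socs1 are highest in class II-high cells, Psmb9 is too, by less, and Cxcl10, Ifih1 and Stat2 are highest in interferon-high cells.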

How the data were processed

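The deposited matrices hold raw UMI counts per gene and barcode; per the labels' protocols and the submitters' processing notes, the authors made them with Cell Ranger 3.1, whose STAR step aligned reads to mm10. The gene annotation is not given in the sources used here. The protocols also name an equalising of depth between runs, but the totals, 63001350 and 58915133, differ and the counts were used as deposited. The members, the 26 gene lists and the alternatives were chosen with earlier results of these data known.

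CPM is a count over the UMI total of a cell or class. Counts were summed per library and class, giving 4 sums, and tested with edgeR 4.0.16 in R 4.3.3 (quasi-likelihood, TMM, filterByExpr, library as a block since both classes share a library, 1 residual degree of freedom, Benjamini-Hochberg). The procedure was run on simulated counts with the same dispersion for every gene and no sums carried by single cells. That run therefore does not measure its error rate on these data. The first comparison had 9.84 prior degrees of freedom beside the 1 residual. Its p-values thus rest mostly on dispersion shared between genes, not on each gene's own spread. DESeq2 1.42.0 was an alternative. Interferon genes used to choose the second class were left out there. Named were the JAK-STAT genes, the called genes with the largest change per list and direction (at most 4 for presentation and interferon lists, 2 for others), and 8 per direction outside the lists with a mean of at least 20 CPM (5 in the second comparison); B2m, H2-K1, Tap1, Gbp2, Igtp, Gsdmd, Atf4, Rfx5, Ctss, Cd40, the haemoglobin genes and other genes beyond the rule were named after their values were seen. Of 31053 genes, 31011 were found in GENCODE M21 (GRCm38). Some genes are not reported here.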

Additional observations from a re-analysis of the deposited data

How the results depend on the processing

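The counts of called genes depended on the processing. In the comparison with other tumour cells (439 higher, 273 lower), DESeq2 gave 227 and 110, a required log2 fold change of at least 1 gave 182 and 40, and thinning each cell to 10000 UMIs gave 109 and 36. The top 50 per library gave 748 and 580, at most 10 percent mitochondrial UMIs 788 and 577, no low-count filter 634 lower, no Tyrobp or Fcer1g UMI 427 lower, and compared cells without a ranking UMI 450 lower. Alternatives chosen after seeing the data gave 692 and 489 (without mixed barcodes), 263 and 144 (ranks 26 to 75), 262 and 93 (no UMI of immune markers that are rare in tumour cells) and 421 lower (top 25). Against interferon-high cells (338 higher, 364 lower), DESeq2 gave 52 and 66, no replicate block 174 and 223, a log2 fold change of at least 1 gave 95 and 82, and removal of mixed barcodes 143 and 177. For other tumour cells, leaving out the replicate block (both classes come from each library) gave 420 higher and 221 lower. The cause was not tested.

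Of the 712 called genes, between 126 (thinned) and 712 were also called under each alternative. Signs reversed for C4b (-1.67, top 25), Hopx (-0.14, thinned), Hspa1a (0.18, thinned), Ifnar1 (-0.10, ranking without Cd74), Ifngr1 (-0.18, thinned), Ifngr2 (-0.19, thinned), Jak1 (0.075, ranks 26 to 75), Jak2 (-0.15, thinned), Timp3 (-0.007, thinned) and Spp1 (0.016 with the top 100, 0.17 with Nras at 2000 CPM or more, 0.026 thinned). The planned removal of cells with any immune marker UMI left 25 and 19 gate cells and none to compare, so it gave no value. Leaving out a library leaves 1 sum per class and no test. With either library left out, no called gene among those named changed sign, which calls made on both libraries largely imply. With 2 libraries and few class II UMIs in many members, small changes in rare genes are poorly resolved.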
